A study of Homo sapiens with 6 samples.

Results

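The BCL2 family of apoptosis regulators is described here through 10 genes, chosen by gene name: BCL2, BCL2L1, MCL1, BAX, BAK1, BCL2L11, BAD, BID, BBC3 and PMAIP1. All 10 were listed in both of the deposited tables of FPKM (fragments scaled by transcript length and by the number of mapped fragments), among the 14270 genes that both tables hold. The largest ratio between the tables was that of PMAIP1 (NOXA), at 4.81 FPKM in the first and 11.9 FPKM in the second. BCL2L11 (BIM) and MCL1 were also higher in the second table, BAD was lower, and the other members lay closer together. The most abundant member in both tables was BCL2L1 (BCL-X), and BCL2 itself was the least abundant.

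The cells were U2OS, an established human osteosarcoma line, and the labels describe 6 RNA samples of it. These are 1 input from shNC control cells, 1 input from shDNMT1 cells, in which the DNA methyltransferase DNMT1 was knocked down with a short hairpin RNA, and 2 samples per kind of cell of RNA that came down with a mutant of NSun2, an RNA cytosine methyltransferase. Per the labels' protocols the mutant was introduced on a plasmid into control and knockdown cells alike, and the labels do not say whether the hairpin cells were clones. The headers of the 2 tables name no sample, so neither table stands for a cell type, an input or an immunoprecipitate, and the knockdown was compared with its control nowhere below.

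Each gene has 1 value per table, without replicates, so differences are described for these tables alone and none was tested. Their depth is unknown. In bulk RNA of this kind, fewer cells that express a gene and less of its RNA per cell cannot be told apart. The target of the knockdown, DNMT1, had levels of 23.3 FPKM (first) and 9.36 FPKM (second), and NSUN2 at 559 and 1147 FPKM. Of 9 osteoblast markers, the first table listed 2 and the second 5, with summed levels of 81.4 and 39.5 FPKM that were nearly all from the alkaline phosphatase ALPL. In the second table RUNX2, COL1A1, SPARC and BGLAP were each under 1 FPKM, and COL1A1 was higher in the first, at 3.04 against 0.45 FPKM. SP7, COL1A2, SPP1 and IBSP were in neither table. Of 7 markers of other cells, 2 and 3 were listed, and their summed level was 10.6 FPKM in the first table against 1.22 FPKM in the second. The epithelial cadherin CDH1 made up most of the former, at 8.42 FPKM against 0.39 FPKM in the second, and EPCAM was listed at 2.20 and 0.55 FPKM. PTPRC, CD3E, PECAM1 and ALB were in neither. The part of these differences in the results on the BCL2 family was not tested.

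The BCL2 family decides at the mitochondrial outer membrane whether a cell under stress dies. BAX and BAK1 can assemble into pores that release cytochrome c, BCL2, BCL2L1 and MCL1 bind and restrain them, and the BH3-only proteins set the balance by occupying the restrainers or by activating BAX and BAK1 directly. Several BH3-only genes, PMAIP1 and BBC3 among them, are switched on in transcription under stress, while BAD and BID are known mainly for control of the protein by phosphorylation and by cleavage. The title of the series names apoptosis of osteosarcoma cells as its subject.

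The DNA upstream of 3 of these genes is shown first. Among the members, PMAIP1 and BCL2L11 had the highest ratios of the second table over the first, and BAD had the lowest. CG pairs are marked because DNMT1 methylates cytosines in them. Each line holds the 250 bases before the RefSeq start of the gene (GRCh38.p14), 5′ to 3′ on the gene's strand, with CG pairs in capitals. The intervals given in the tables differ from RefSeq. The windows of BCL2L11 and BAD lie inside the intervals of these genes, and that of PMAIP1 overlaps its interval. The PMAIP1 window lies at chr18:59899746-59899995 on the plus strand, that of BCL2L11 at chr2:111120664-111120913 on the plus strand, and that of BAD at chr11:64284705-64284954 on the minus strand.
PMAIP1: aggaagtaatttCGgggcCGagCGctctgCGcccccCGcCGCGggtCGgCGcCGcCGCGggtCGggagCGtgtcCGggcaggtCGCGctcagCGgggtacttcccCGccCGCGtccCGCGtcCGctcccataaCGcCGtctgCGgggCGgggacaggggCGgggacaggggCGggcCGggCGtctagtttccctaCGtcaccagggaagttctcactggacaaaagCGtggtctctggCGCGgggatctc
BCL2L11: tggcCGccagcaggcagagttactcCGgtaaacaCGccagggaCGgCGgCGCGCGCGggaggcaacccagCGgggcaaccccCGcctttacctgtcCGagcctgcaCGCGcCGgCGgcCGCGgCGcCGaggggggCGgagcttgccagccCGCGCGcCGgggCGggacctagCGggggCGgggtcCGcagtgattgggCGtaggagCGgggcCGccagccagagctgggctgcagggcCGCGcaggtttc
BAD: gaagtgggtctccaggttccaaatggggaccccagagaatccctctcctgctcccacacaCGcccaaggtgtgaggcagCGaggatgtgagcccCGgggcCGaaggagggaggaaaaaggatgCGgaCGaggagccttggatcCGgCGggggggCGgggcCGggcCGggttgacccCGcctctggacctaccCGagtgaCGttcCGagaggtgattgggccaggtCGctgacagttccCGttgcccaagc
The PMAIP1 window held 36 CG pairs and that of BCL2L11 held 34, more than 91.7% and 88.3% of the windows of 8382 genes with a mean of at least 1 FPKM. The BAD window held 17, more than 30.5% of those windows. The median of these genes was 21 CG pairs. Over these genes the ratio between the tables followed no order with CG content. In 5 classes of nearly equal size from few to many CG pairs, the median log2 ratios of the second table over the first were 0.07, 0.14, 0.12, 0.11 and 0.08. The 3 windows shown were chosen by the ratios of their genes. The other members with a window held 25 (BAX, log2 ratio 0.16), 24 (BCL2, 0.07) and 17 CG pairs (BCL2L1, 0.11). BAK1 held 5 (-0.26), and BID and BBC3 held 4 each (0.16 and -0.08). A link between CG pairs and ratio among the members was not tested. These letters describe the reference sequence, and its methylation was not measured in the tables.

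Among the restrainers of cell death, BCL2L1 (ENSG00000171552; chromosome 20, 31664452 to 31723989, hg38) had 76.6 FPKM in the first table against 82.9 FPKM in the second. These levels were above those of 94.9% and 95.7% of the genes listed in the respective table. The gene makes the long, protective form BCL-XL and a short form that promotes death, and a level per gene does not separate them. The antisense transcript ABALON was given the same interval and was listed in the first table only, at 0.17 FPKM. MCL1 (ENSG00000143384; chromosome 1, 150548562 to 150579738), a short-lived restrainer that is lost quickly when its synthesis stops, was listed at 29.4 and 45.2 FPKM. It was the fifth of the 10 members in the first table and the second in the second. Its interval in the tables was shared with ADAMTSL4, at 10.2 and 11.8 FPKM, and with an antisense RNA of that gene. BCL2 (ENSG00000171791; chromosome 18, 63123346 to 63320128), the founding member and a target of venetoclax, was listed at 0.78 and 0.86 FPKM. It stood above 21.3% and 30.3% of listed genes, at ranks 11936 of 15167 and 11733 of 16824. The second table listed more genes, although 11427 and 11421 genes reached at least 1 FPKM, so these percentages depend on the length of each list. BCL2L1 was thus 98.7 times as abundant per length as BCL2 in the first table, and 96.2 times as abundant in the other.

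**Figure D1:**
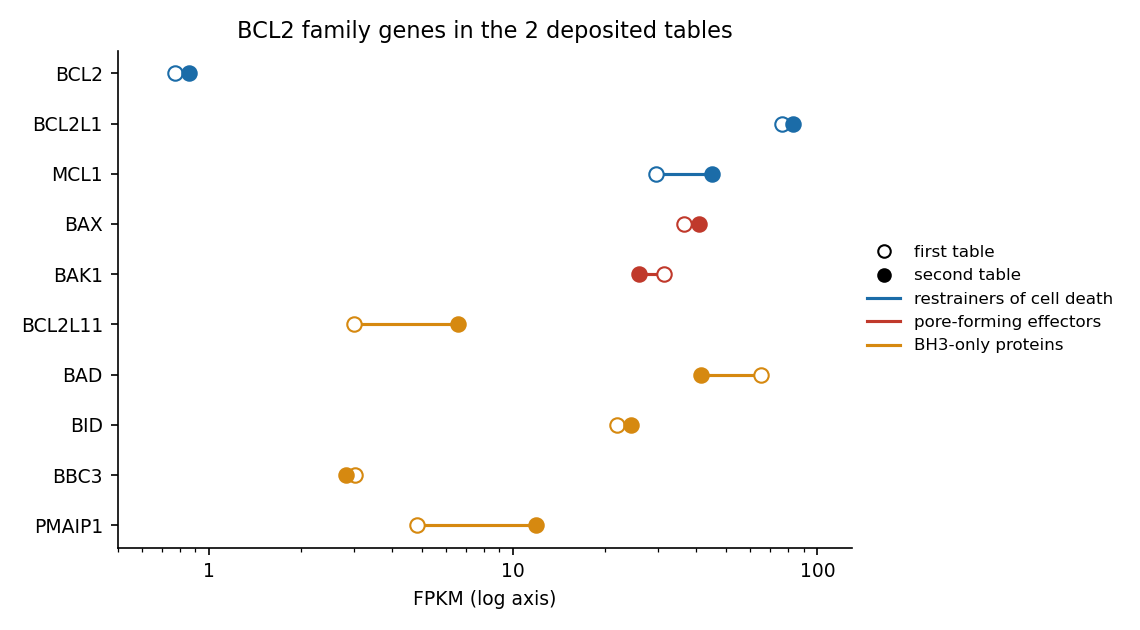
Level of each member in FPKM (log axis), with the first table as an open and the second as a filled circle, coloured by role. PMAIP1 and BCL2L11 show the widest gaps, BAD, BAK1 and BBC3 are lower in the second table, and BCL2L1 stands furthest right and BCL2 furthest left in both.

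The pore-forming effectors were listed at similar levels. BAX (ENSG00000087088; chromosome 19, 48954815 to 48961798), which moves from the cytosol to mitochondria during apoptosis, was at 36.3 FPKM in the first table against 40.8 FPKM in the second. BAK1 (ENSG00000030110; chromosome 6, 33540046 to 33593338), which resides at the mitochondrial membrane, was at 31.2 and 25.9 FPKM. BAX was therefore 1.16 times as abundant as BAK1 in the first table, and 1.57 times as abundant in the other. The BAK1 interval reaches beyond the RefSeq gene (33572552 to 33580276) on both sides, although no other identifier listed in the tables had the same interval. A pseudogene of BAK1 on chromosome 20, BAK1P1, was listed in the first table only, at 0.38 FPKM, and fragments of close copies could be divided between them upstream.

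Of the BH3-only genes, BAD (ENSG00000002330; chromosome 11, 64269830 to 64289500), a sensitiser that binds BCL2L1 and BCL2 when it is not phosphorylated, was the most abundant in both tables, at 65.3 and 41.5 FPKM. It shared its interval with GPR137, listed at 33.9 and 32.3 FPKM. BID (ENSG00000015475; chromosome 22, 17734138 to 17774770), which caspase 8 cleaves to link death receptors to mitochondria, was at 21.9 and 24.5 FPKM.
PMAIP1 (ENSG00000141682; chromosome 18, 59899948 to 59904306), whose protein binds MCL1 and promotes its destruction, was at 4.81 and 11.9 FPKM. BCL2L11 (ENSG00000153094; chromosome 2, 111119378 to 111168447), an activator that binds every restrainer, was at 3.004 and 6.59 FPKM. BBC3 (PUMA; ENSG00000105327; chromosome 19, 47220822 to 47232766), another strong activator, was at 3.03 and 2.81 FPKM. In the first table the last 3 lay between 3.004 and 4.81 FPKM, and in the second they were spread from 2.81 to 11.9 FPKM. None of these 3, nor BID or BAX, shared its interval with another listed identifier.

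In the first table the order of the members from the highest level down was BCL2L1, BAD, BAX, BAK1, MCL1, BID, PMAIP1, BBC3, BCL2L11 and BCL2. In the second it was BCL2L1, MCL1, BAD, BAX, BAK1, BID, PMAIP1, BCL2L11, BBC3 and BCL2. MCL1 moved up past BAD, BAX and BAK1, and BCL2L11 and BBC3 changed places. With no spread over replicates, which neighbours in these orders differ beyond error cannot be said. BBC3 and BCL2L11 were nearly level in the first table, as were BAD and BAX in the second.

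The ratio between the tables was taken as log2((second + 1)/(first + 1)), where the added 1 FPKM makes differences of low genes look smaller. PMAIP1 had a log2 ratio of 1.15, above that of 99.0% of all 14270 genes, and above that of 98.9% of the 4156 genes whose mean level lay within 2-fold of its own. BCL2L11 followed at 0.92, above 97.0% of all genes and 95.3% of the 4255 genes of like level. MCL1 had a log2 ratio of 0.60, above 88.6% of all genes. BAD had -0.64, above 6.40% of all genes and 3.13% of the 1856 genes of like level. The other 6 lay between -0.26 (BAK1) and 0.16 (BAX), with BBC3 at -0.08, BCL2 at 0.07, BCL2L1 at 0.11 and BID at 0.16.

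**Figure D2:**
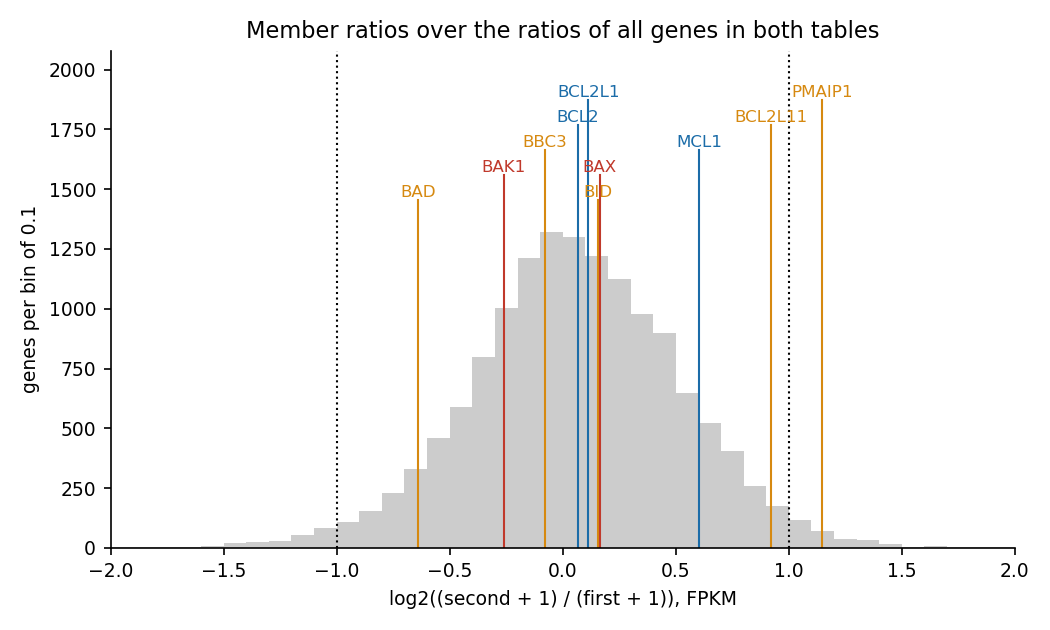
Number of genes per bin of 0.1 in the log2 ratio of the second table over the first (grey), with the 10 members as vertical lines coloured by role and dotted lines at a 2-fold difference; 13 genes lie beyond the ends of the axis. PMAIP1 at 1.15 is the member past a dotted line.

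PMAIP1 was the member at least 2-fold apart on this scale, 1 of 10. Of all genes in both tables, 3.72% were that far apart, 2.04% being higher and 1.68% lower in the second table. Once the median over all genes, 0.05, was taken off the ratios, the counts of higher and lower genes turned from 291 and 240 into 233 and 286, and PMAIP1 was still past 2-fold. As plain ratios of FPKM, PMAIP1 was 2.47-fold and BCL2L11 2.20-fold higher in the second table, MCL1 1.54-fold higher, and BAD 1.57-fold higher in the first. With a pseudocount of 0.1 FPKM, BCL2L11 reached a log2 ratio of 1.11 and was also past 2-fold, on a scale on which 7.41% of all genes were at least 2-fold higher. By any amount, 7 of the 10 members were higher in the second table and 3 lower, beside 54.8% and 45.2% of all genes. The median log2 ratio was 0.13 over the members and 0.05 over all genes. The 3 restrainers were all on the higher side, but BCL2 (0.07) and BCL2L1 (0.11) lay near the median of all genes and only MCL1 (0.60) well above it. The effectors were divided 1 and 1, and the BH3-only genes 3 and 2.

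Ratios between members within a table do not depend on how the tables are scaled to each other. MCL1 stood at 6.10 times the level of PMAIP1 in the first table, against 3.80 times in the second, since PMAIP1 differed more than MCL1 did. MCL1 over BCL2L11 was 9.78 and 6.85. BCL2L1 was 2.61 and 1.84 times MCL1, and 1.17 and 2.00 times BAD. BCL2L1 over BAX was nearly the same in both, at 2.11 and 2.03. PMAIP1 over BBC3, both genes induced by stress, was 1.59 and 4.22. BAX over BAK1 was 1.16 and 1.57. By the log2 ratios given above, and not by these pairs, the tables differed most in PMAIP1, BCL2L11, BAD and MCL1. The log2 ratios of the other members lay between -0.26 (BAK1) and 0.16 (BAX).

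Summed over each role, the restrainers made up 106.7 FPKM in the first table against 128.9 FPKM in the second. The effectors were at 67.5 and 66.7 FPKM, and the BH3-only genes at 98.0 and 87.3 FPKM. As shares of the sum over all 10 members, 272 and 283 FPKM, the restrainers were 39.2% and 45.6% and the BH3-only genes 36.0% and 30.8%. The BH3-only sum was lower in the second table because BAD, its largest term, stood 23.8 FPKM higher in the first, more than the 7.06 FPKM by which PMAIP1 and the 3.59 FPKM by which BCL2L11 were higher. These are sums of RNA levels per length and do not measure the proteins.

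**Figure D3:**
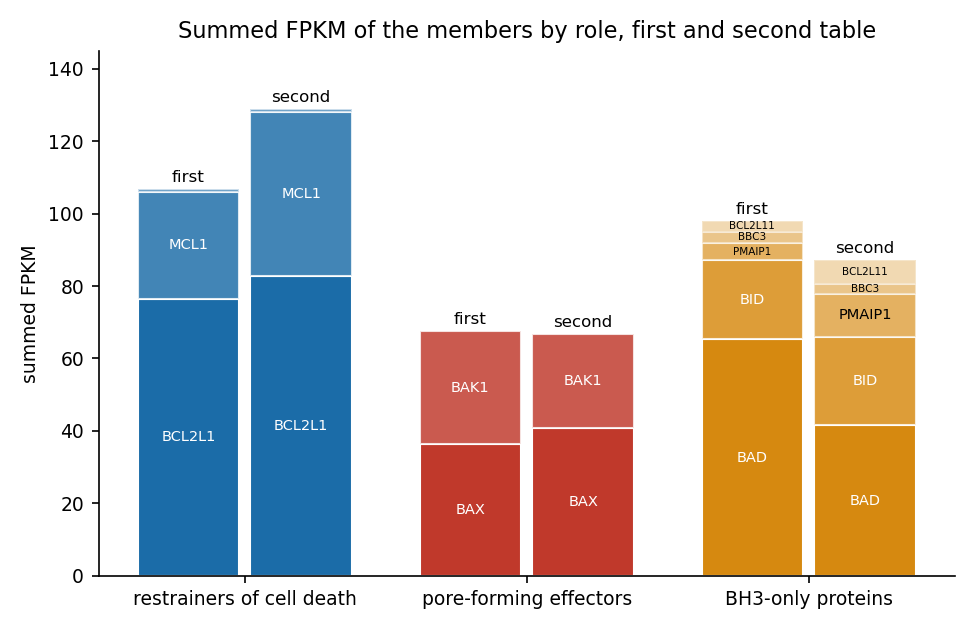
Summed FPKM of the restrainers, effectors and BH3-only genes in each table, stacked by member; the thin unlabelled top of the first pair is BCL2. The restrainer sum is 106.7 and 128.9 FPKM with 15.8 FPKM of the difference from MCL1 and 6.34 FPKM from BCL2L1, and the BH3-only sum is 98.0 and 87.3 FPKM with a smaller BAD and a larger PMAIP1 and BCL2L11 in the second.

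The ratio between the tables also moved with gene density. The 11416 genes with a mean of at least 1 FPKM were split into 5 classes of nearly equal size by their number of neighbours. A neighbour was any other listed identifier whose interval had its lower coordinate within 1 Mb of the gene's own, whatever the strand. Identifiers that share the gene's interval were counted too. The median log2 ratio was 0.26 in the sparsest class and -0.13 in the densest. PMAIP1 had 3 such neighbours and BCL2L11 had 15, while BAD had 61, MCL1 68 and BAX 80. Less the median of its class, the log2 ratio of PMAIP1 was 0.89, under 2-fold, and that of BCL2L11 0.70. Within their classes PMAIP1 stood above 97.7% and BCL2L11 above 95.2% of the genes. MCL1, in the densest class, had 0.73 after the median was taken off and stood above 96.0% of that class. BAD became -0.51, above 10.2% of its class. BCL2L1 went from 0.11 to -0.0097, while BID became 0.03, BAX 0.29, BAK1 -0.27 and BBC3 -0.09. BCL2, with a mean under 1 FPKM, was in no class. The part of gene density in these ratios was not tested.

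**Figure D4:**
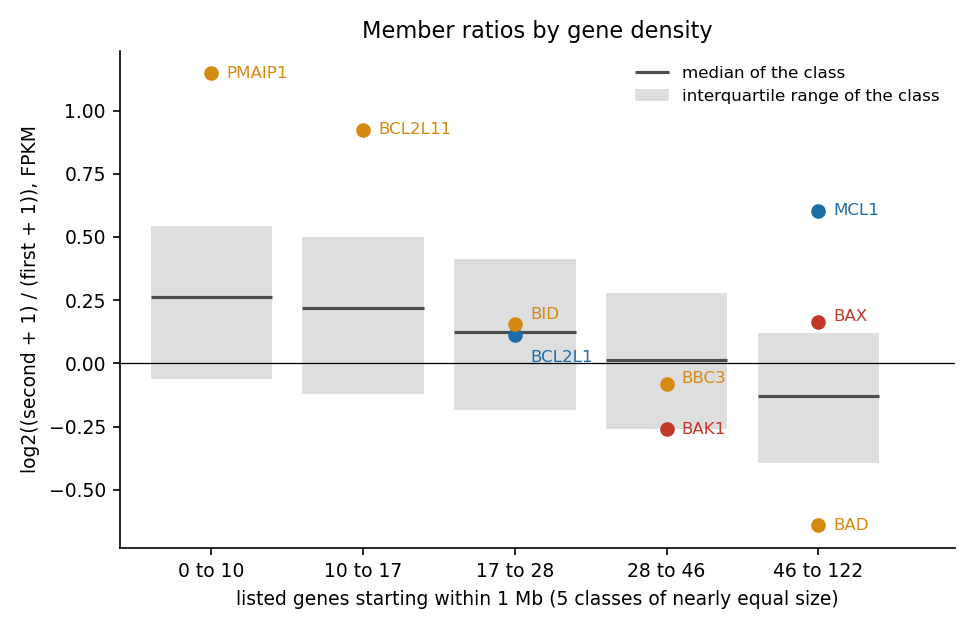
Log2 ratio of 9 members (points, coloured by role) in the class of gene density each belongs to, over the interquartile range (grey) and median (line) of all genes of that class. The class medians go from 0.26 to -0.13 from sparse to dense; PMAIP1, BCL2L11, MCL1 and, narrowly, BAX lie above the grey bars, BAD lies below, and BAK1 sits at the lower edge.

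The wider BCL2 family held 14 further genes, of which 11 were listed in both tables, 7 higher and 4 lower in the second. Of all genes in both tables, 54.8% were higher and 45.2% lower. The median log2 ratio of the 11 was 0.22, beside 0.05 over all genes. None was 2-fold apart with 1 FPKM added to each level. As plain ratios HRK and BCL2L15, both under 1 FPKM, were more than 2-fold higher in the second table. With 1 FPKM added, the largest differences were those of BCL2L13 and BOK. BCL2L13, a mitochondrial protein with roles in mitophagy, was at 11.6 and 19.5 FPKM (log2 ratio 0.70). BOK, a pore former that the restrainers bind poorly, was at 10.8 and 7.48 FPKM (-0.47). BCL2A1, BCL2L10 and BCL2L14 were in neither table. Other BH3-only genes were low, BIK at 2.58 and 3.66 FPKM, BMF at 0.50 and 0.75 FPKM and HRK at 0.24 and 0.63 FPKM. BCL2L2 (BCL-W), the remaining restrainer listed, was at 5.65 and 4.95 FPKM, above BCL2 in both tables, with an interval that 5 other identifiers shared.

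Of 15 genes that act after the members at mitochondria, all were in both tables, 12 higher and 3 lower in the second, with a median log2 ratio of 0.27 and none 2-fold apart. The all-gene figures were 54.8% higher, 45.2% lower and a median of 0.05. CASP9, the initiator caspase of the apoptosome, was at 10.2 and 6.08 FPKM (-0.66). DIABLO, which leaves mitochondria to relieve caspases of their inhibitors, was at 32.7 and 49.6 FPKM (0.59) and shared its interval with 3 other identifiers. Cytochrome c (CYCS) was at 11.0 and 15.4 FPKM and its partner APAF1 at 3.32 and 3.70 FPKM.

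Among 8 transcription factors known to act on genes of the family, 7 were in both tables, 6 higher and 1 lower in the second, with a median log2 ratio of 0.32 and none 2-fold apart. DDIT3 (CHOP), a factor of endoplasmic reticulum stress, was at 1.99 and 3.42 FPKM (0.57), in an interval that 3 other identifiers shared, and MYC, which can sensitise cells to apoptosis, was at 125.7 and 164 FPKM (0.39). ATF4, which acts with DDIT3, was at 104.2 and 129.95 FPKM, and E2F1 was the factor lower in the second table, at 36.3 and 29.5 FPKM. Of 12 genes whose proteins modify or bind the members, 10 were higher and 2 lower in the second table, with a median of 0.34. Among all genes, 54.8% lay on the higher side and 45.2% on the lower, with a median of 0.05. At least 2-fold apart were 3.72% of them. FBXW7, a ubiquitin ligase receptor that has MCL1 among its substrates, was at 6.08 and 2.10 FPKM (-1.19). It was the gene of all 4 lists that was 2-fold apart with 1 FPKM added to each level. YWHAZ, a 14-3-3 protein that holds phosphorylated BAD in the cytosol, was at 73.1 and 129 FPKM (0.81). Against these lists, the median of the 10 members, 0.13, was the lowest, but it lay above the 0.05 of all genes. These medians carry no test.

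**Figure D5:**
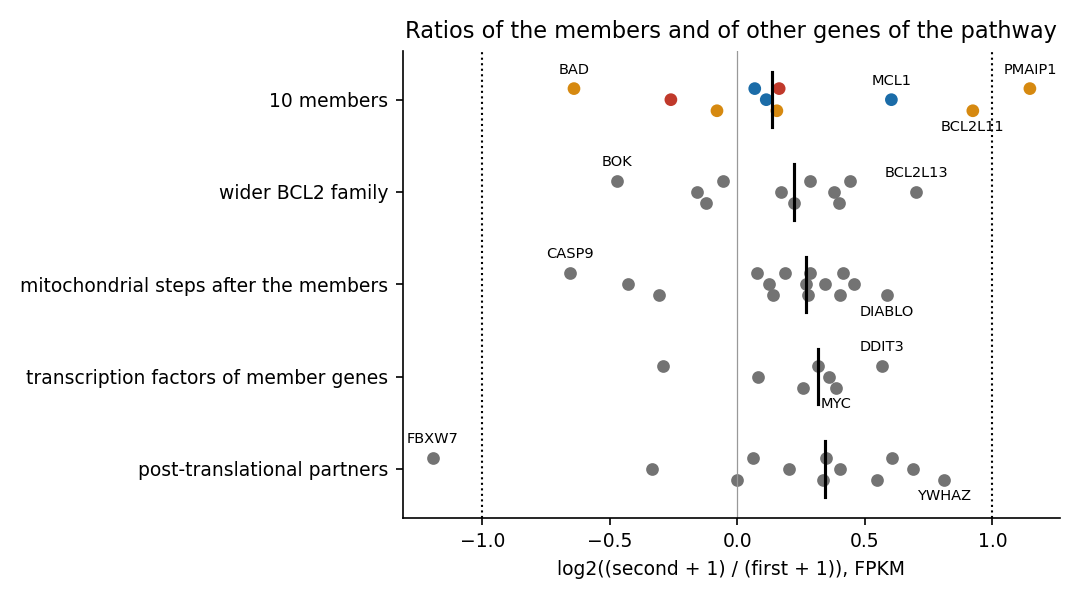
Log2 ratio of the second table over the first for the members (coloured by role) and for the genes of 4 further lists (grey), with list medians as black bars and dotted lines at a 2-fold difference; points are offset vertically for legibility. PMAIP1 at 1.15 and FBXW7 at -1.19 are the points past the dotted lines.

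The list gene nearest to each member over both tables was found among the 45 genes of these lists by the distance on the log2(FPKM + 1) scale. BAD was nearest to the mitochondrial nuclease ENDOG (distance 0.44), with 65.3 and 41.5 against 49.3 and 36.4 FPKM. MCL1 was nearest to YWHAB (0.20), at 33.1 and 48.8 FPKM, and BAX to STAT3 (0.11), at 35.7 and 37.8 FPKM. The members farthest from any list gene were BID, with HTRA2 at a distance of 0.63, and PMAIP1, with DYNLL2 (7.58 and 12.1 FPKM) at 0.56. BCL2L11 had BNIP3 at 0.40. Likeness over 2 values rests mainly on the level.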

How the data were processed

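The values are FPKM per gene in 2 tables that the authors deposited, with columns for identifier, name, locus and FPKM, per the file headers. The FPKM tool was not given in the sources used here. Tools listed in the submitters' processing notes, with no role, are BWA 0.7.13, MACS 1.4.2 and cutadapt 1.12, and the build listed is hg38. Neither table names a sample, so no group was assigned, and the planned comparison of immunoprecipitates was not made. FPKM is relative to a total, and 46.7% of genes in both tables have an interval that another identifier shares. Deposited interval starts plus 1 equalled the RefSeq start for 1549 of 6749 genes alone at their locus (121 without the addition), so 1 was added.

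The named genes were the 10 members, genes of 4 lists at least 2-fold apart or else the 2 largest differences of a list, and the nearest list gene. Other list genes were named after their values were seen, and 1 list gene is not reported here. Members and lists were chosen with earlier results of these data known. Ratios used a pseudocount of 1 FPKM. The code was checked on constructed values. RefSeq windows were found for 9 members, using the most upstream start; MCL1 had no entry. Protein features were not analysed here. Calculations used Python 3.11.15, pandas 2.3.3 and numpy 2.4.6, and matplotlib 3.10.9 drew the figures.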

Additional observations from a re-analysis of the deposited data

How the results depend on the processing

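No paired analysis was possible because no column is tied to a replicate, and for the same reason no replicate could be left out. The alternatives were a pseudocount of 0.1 FPKM, centring on the median of all genes, equal totals without the 100 most abundant genes of either table, identifiers summed by gene name or by locus and, chosen after seeing the data, subtraction of the median of genes of like density. A member's ratio was taken as unmoved when it changed by less than 0.1. Of 59 recomputed ratios 49 were, 9 moved further, and that of BCL2L1 changed sign to -0.0097 with the density median subtracted. Filters and sums by name leave a single ratio as it was by construction. Centring took 0.05 off every ratio and equal totals shifted each by up to -0.02, so neither could pass the 0.1 limit. Sums by locus could change only BCL2L1, MCL1 and BAD, which share an interval. Most of the 49 were therefore unmoved by construction and do not show that the ratios are stable. Summed by locus, BAD became -0.42, since GPR137 adds to both tables. The count of members at least 2-fold higher, 1, became 2 with a pseudocount of 0.1 and 0 with the density median subtracted. The counts of all genes at least 2-fold higher and lower, 291 and 240, became 1058 and 973 with a pseudocount of 0.1, which enlarges the ratios of low genes, and 167 and 114 among genes sharing no locus, where fewer genes enter. The median of the wider BCL2 family became 0.49 with a pseudocount of 0.1. Absolute depth is unknown, so the precision of low members such as BCL2 cannot be given.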

Other observations

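The RefSeq windows of the other members differed widely in letters. The window of BAX held CACGTG, the E-box hexamer, 4 times and that of BBC3 once, and the other 7 windows held none; 9.42% of the windows of genes with a mean of at least 1 FPKM hold it. The hexamer is its own reverse complement. The GC box (GGGCGG or, on the other strand, CCGCCC) was found 4 times in the window of PMAIP1, 3 times in that of BCL2L11, 2 times in that of BAK1 and once each in those of BAX and BAD; 69.3% of the same windows hold it. CG pairs numbered 25 for BAX, 24 for BCL2, 17 for BCL2L1, 5 for BAK1 and 4 each for BID and BBC3. These are matches of letters in 250 bases and not measurements of binding.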
